A study of Mus musculus with 4 samples.

Results

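Replication of the genome in S phase was read through 51 genes in recruited alveolar macrophages, cells that arise from blood monocytes and populate injured airspaces. The genes were chosen by name, with earlier results of these data known. They are a textbook set of origin licensing, helicase, polymerase, clamp, nucleotide supply, S-phase entry, chromatin and fork protection factors. All 51 were among the 16360 symbols of the count table, and all 51 passed the filter on low counts that left 13575 genes for testing. The study compared male wild-type (WT) mice with male mice homozygous for R213G, an amino acid change in extracellular superoxide dismutase (EC-SOD), a secreted antioxidant enzyme. The mice were 8 to 10 weeks old, of the strain labelled CD57/Bl6, and all had been given the lung-injuring drug bleomycin intratracheally (100 µl of a 1 U/ml solution). On day 7 cells with high CD64, high CD11b and low Siglec-F (SigF) were sorted, and gave 2 poly(A) RNA libraries per genotype, called here R213G 1, R213G 2, WT 1 and WT 2. There was no group without bleomycin, so every value is a level in injured lung. How the R213G allele was introduced, and how many mice stand behind a library, is not given in the sources used here, so a p-value here reflects the spread among these libraries, which may be technical.

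Replication proceeds in an ordered series of steps. In G1 the origin recognition complex, Cdc6 and Cdt1 load a ring of Mcm2 to Mcm7 onto DNA. At the start of S phase cyclin E and E2F activity rise, Cdc45 and the GINS complex turn the loaded ring into a moving helicase, and polymerases held by the PCNA clamp copy both strands. Most of these genes are E2F targets and are transcribed in late G1 and S phase, so that their messages are low in resting cells. Many mature macrophages and the monocytes they come from are not dividing, but macrophages in injured tissue can enter the cell cycle.

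The libraries held 33488569 to 35176210 counts, and 13584 (R213G 1) to 15194 (WT 2) genes had at least 1 count. Levels are given as CPM, the count per 1000000 counts of a library after trimmed-mean (TMM) scaling, and values are given in the order replicate 1, replicate 2 within each genotype. The transcripts behind the sort were present: Itgam, which encodes CD11b, was at 859 and 721 CPM in R213G and 886 and 759.7 CPM in WT, Fcgr1, which encodes CD64, at 249.8 and 251 CPM in R213G and 261 and 243 CPM in WT, and Siglecf at 12.1 and 11.6 CPM in R213G and 10.8 and 10.8 CPM in WT. All 12 genes of the gate and macrophage list had counts in every library, and its summed level was 25062 to 31632 CPM.

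E2F proteins bind short GC-rich motifs near the start sites of these genes, and the promoters show how widely the members carry them. Of the 51 members, 43 had an entry in the RefSeq promoter table (build GRCm38.p6), which gives 250 bases before to 50 bases after a start site. Mcm4, Gins1, Gins2, Gins4, Rfc2, Prim2, Pole and Ccne2 had none. E2F-type words of 8 bases were searched on both strands: TTTGGCGC, TTTCGCGC, TTTCCCGC and TTCCCGCC. The last pair overlap where a C follows TTTCCCGC, and TTTGGCGC and TTTCGCGC overlap on opposite strands. At least 1 word was found for 20 of the 43 members (46.5%), against 4.0% of all 27025 genes in the table and 7.65% of the 9755 tested genes with an entry. Words in at least 2 separate places of a single window were found for 4 members (9.30%). The share was 0.170% of all genes and 0.400% of the tested genes with an entry. Uhrf1, whose words lie in separate windows, is not counted among the 4. A match describes the letters only and shows no binding. The windows below are shown because they lie upstream of the start in the RefSeq table, in no annotated exon, and cover steps from licensing to nucleotide supply and chromatin. Each is on GRCm38, written 5′ to 3′ along the gene's own strand, with the matched words in capitals.
Mcm6, chr1:128359725-128359835, minus strand: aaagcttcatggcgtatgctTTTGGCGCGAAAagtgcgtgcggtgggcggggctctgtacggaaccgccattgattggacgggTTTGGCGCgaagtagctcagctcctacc
Mcm5, chr8:75109336-75109387, plus strand: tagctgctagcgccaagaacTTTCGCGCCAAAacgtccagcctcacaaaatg
Cdc6, chr11:98907993-98908040, plus strand: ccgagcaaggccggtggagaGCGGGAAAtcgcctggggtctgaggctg
Pola1, chrX:93632266-93632313, minus strand: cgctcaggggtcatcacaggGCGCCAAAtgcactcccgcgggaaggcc
Rrm1, chr7:102441608-102441655, plus strand: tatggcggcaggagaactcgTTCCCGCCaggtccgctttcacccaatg
Uhrf1, chr17:56303269-56303316, plus strand: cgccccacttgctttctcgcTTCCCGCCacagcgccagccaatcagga
The 12-base capitals of Mcm5 and Mcm6 are overlapping words on opposite strands, and the matches of Cdc6 and Pola1 read on the opposite strand. In the GENCODE annotation Cdc6 starts earlier, at 98907801, so that its window lies within the gene.

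The members as a whole were lowest in WT 1. Their counts made up 0.181% of all counts in R213G 1 (exact binomial 95% interval 0.180% to 0.183%), 0.190% in R213G 2 (0.189% to 0.192%), 0.127% in WT 1 (0.126% to 0.128%) and 0.181% in WT 2 (0.180% to 0.183%). The intervals cover counting error only. The gap between the WT libraries was thus wider than the gap between WT 2 and either R213G library. Of the 51 members, 39 were lowest in WT 1 (76.5%, against 24.4% of all tested genes) and 0 were highest there (24.8% of all tested genes). R213G 2 was the highest library for 24 members, R213G 1 for 15 and WT 2 for 12. Orders with both replicate 1 libraries below both replicate 2 libraries were held by 11, 4, 4 and 4 members. The share of such orders over all tested genes was not counted. In bulk RNA, fewer cycling cells and less of these messages per cell cannot be told apart.

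**Figure D1:**
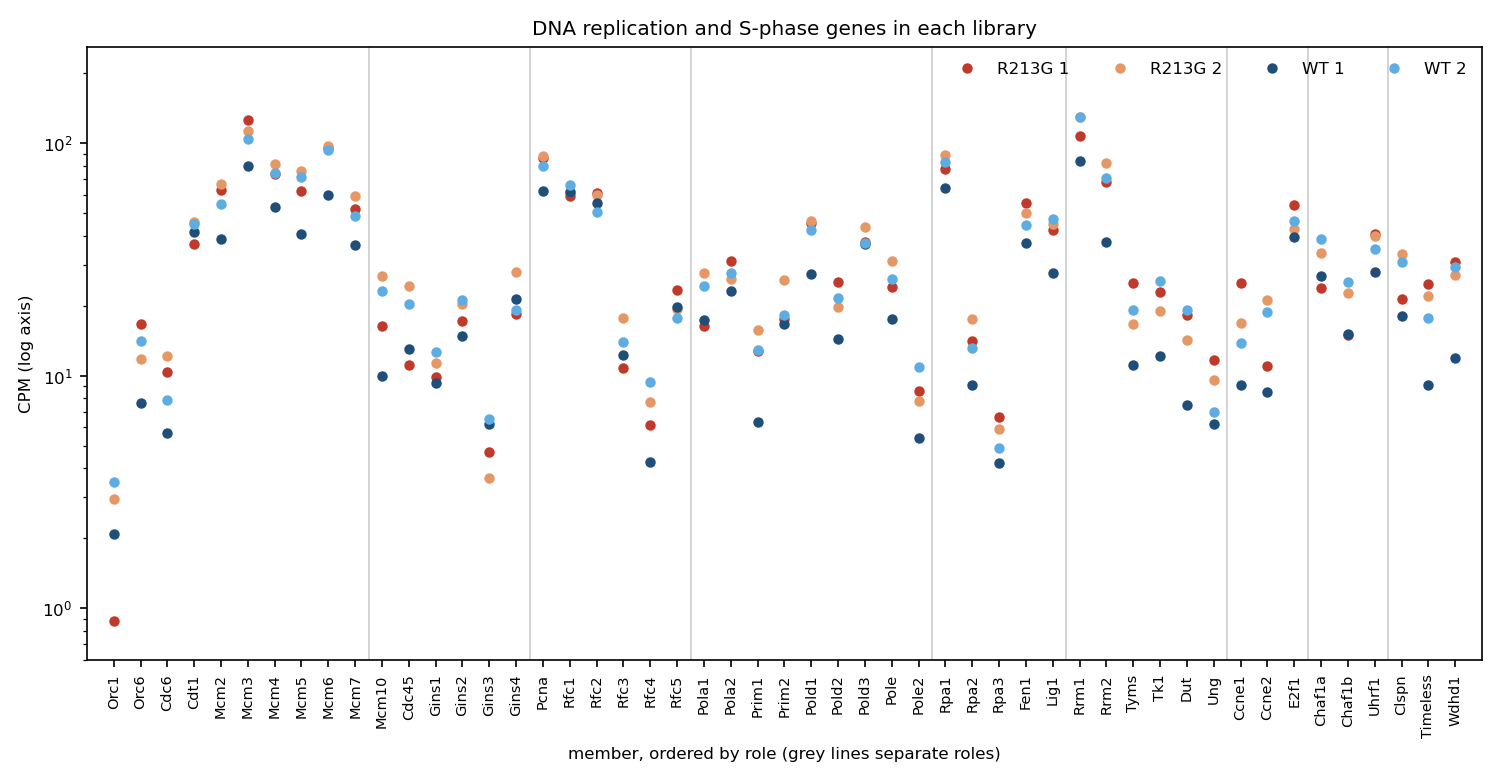
CPM on a log axis for the 51 members in each of the 4 libraries, 1 point per library, with grey lines between roles. WT 1 (dark blue) is the lowest point for 39 members, and Orc1 has the lowest level, at 0.879 CPM in R213G 1.

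Within WT, 48 of 51 members were higher in WT 2 than in WT 1, against 50.7% of all tested genes. The median difference in log2 CPM was 0.53, a ratio of 1.44, beside a median of 0.01 over all tested genes. A ratio above 1.5 was seen for 21 members (41.2%, against 12.7% of all tested genes) and a ratio below 1/1.5 for 0 (10.6% of all tested genes). Within R213G, 32 members were higher in R213G 2 and 19 in R213G 1, and 52.2% of all tested genes were higher in R213G 2. The median difference was 0.14 (0.02 over all tested genes), with 9 members more than 1.5-fold higher in R213G 2 (17.6%, against 17.3% of all tested genes) and 1, Tyms, more than 1.5-fold higher in R213G 1 (13.0% of all tested genes). The shift between the WT libraries was therefore shared by nearly all members, while the R213G libraries differed in a mixed way. These are single libraries set against each other, so no test was possible.

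**Figure D2:**
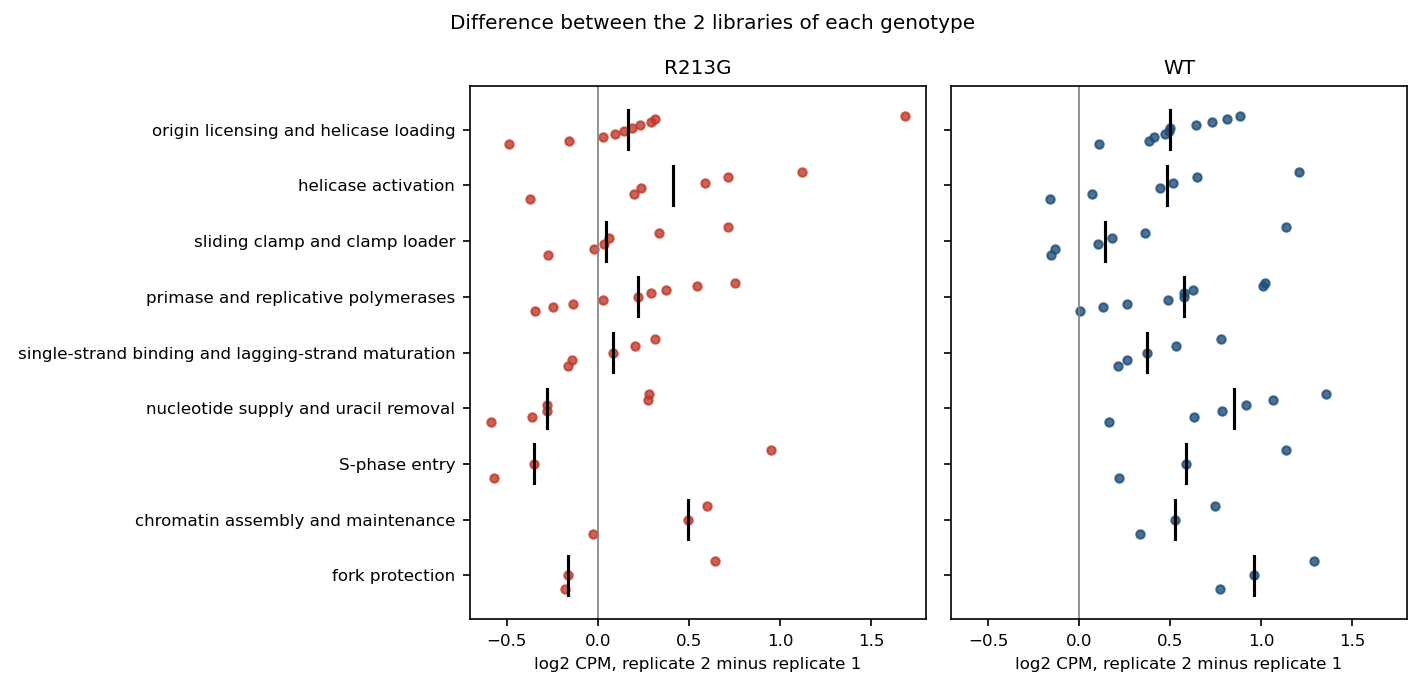
Difference in log2 CPM, replicate 2 minus replicate 1, for each member (points) by role, with the median of a role as a black bar, in R213G (left) and WT (right). In WT 48 of 51 points lie above 0, while in R213G the nucleotide supply, S-phase entry and fork protection roles have medians of -0.28, -0.35 and -0.17.

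Between genotypes no member passed. By edgeR's quasi-likelihood test with Benjamini-Hochberg adjustment, 0 of 13575 tested genes were called (0.0%, adjusted p under 0.05), and 0 of 51 members were called, the smallest adjusted p being 1.0. At an unadjusted p under 0.05, 4 members were higher in R213G (7.84%, against 0.936% of all tested genes) and 0 lower (1.29% of all tested genes), where 302 genes (2.22%) met that p in either direction. The log2 fold change, R213G minus WT, was positive for 43 members and negative for 8, against 49.1% positive over all tested genes. Its median was 0.28, from -0.61 to 0.86, beside -0.01 over all tested genes. Both R213G libraries were above both WT libraries for 16 members (31.4%, against 13.7% of all tested genes) and below both for 1, Gins3 (15.2% of all tested genes). Without WT 1, the members' median was 0.05, with 30 positive and 21 negative (50% positive over all tested genes). It was 0.58 with 47 positive without WT 2, 0.21 with 35 positive without R213G 2, and 0.31 with 47 positive without R213G 1. Over all tested genes the positive shares were 50.9%, 45.9% and 48.2%, in the same order.

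**Figure D3:**
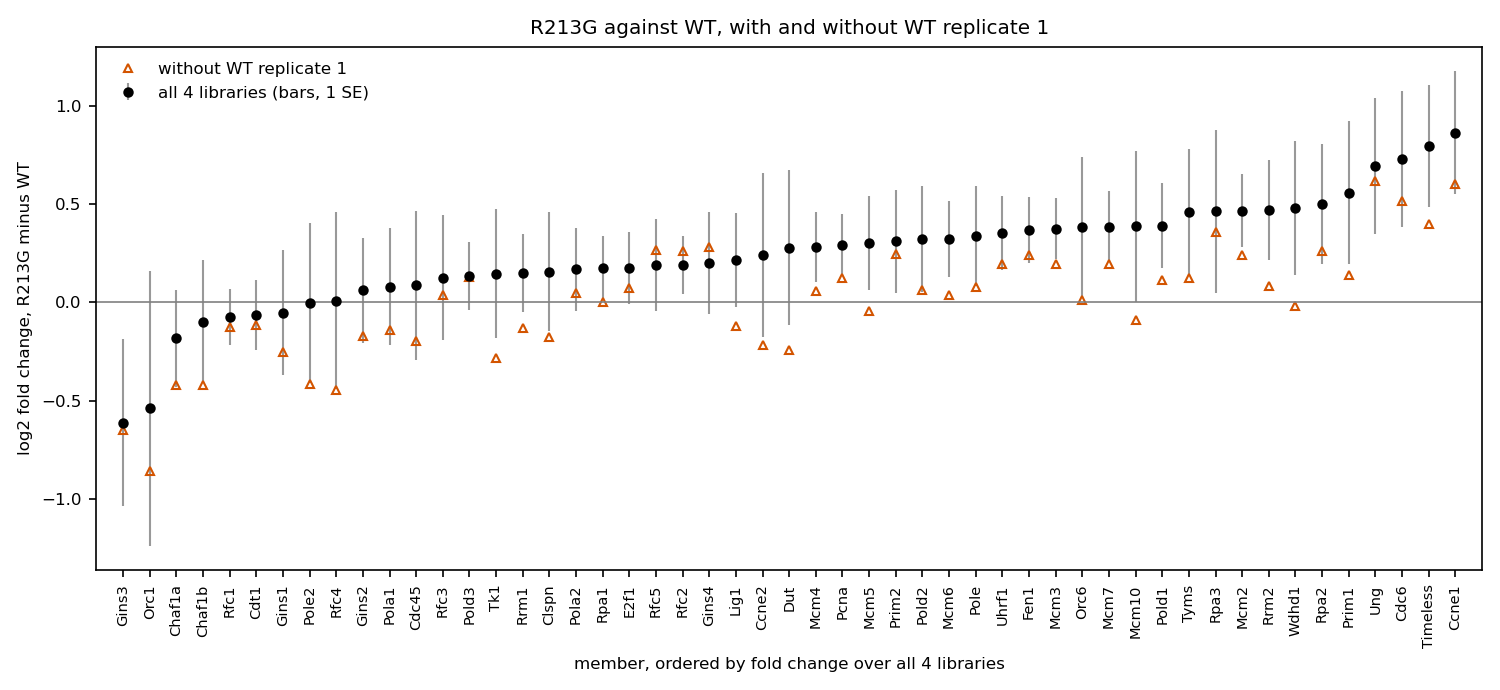
log2 fold change (R213G minus WT) of each member from edgeR over all 4 libraries (black, bars of 1 SE) and without WT 1 (open triangles, no bars), in order of the first. The median of the black points is 0.28 and that of the triangles 0.05.

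The cyclin E pair of S-phase entry genes differed from each other. Ccne1, which with Cdk2 drives cells from G1 into S phase, lies on chromosome 7 from 38097984 to 38107534 (GRCm38, minus strand) and was at 25.1 and 16.8 CPM in R213G and 9.17 and 13.8 CPM in WT. Both R213G libraries were above both WT libraries, and its log2 fold change of 0.86 ± 0.31 was the largest of the 51 members, with an unadjusted p of 0.0215 (edgeR) that did not survive adjustment. Ccne2, its paralog with the same kinase partner, was at 10.98 and 21.3 CPM in R213G and 8.50 and 18.8 CPM in WT, so it followed the replicate number and not the genotype (log2 fold change 0.24 ± 0.42). The 2 cyclins went opposite ways between the R213G libraries, with log2 differences of -0.57 for Ccne1 and 0.95 for Ccne2, and the same way between the WT libraries (0.58 and 1.14). E2f1, the activating transcription factor of this program, was at 54.5 and 42.7 CPM in R213G and 39.7 and 46.2 CPM in WT and varied less than either cyclin.

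Origin licensing genes were mostly higher in R213G, by values that did not pass the test. The 6 subunits of the Mcm2 to Mcm7 helicase varied together: summed, they took 473 and 495 CPM in R213G and 309 and 448 CPM in WT. Mcm2 (chromosome 6 from 88883474 to 88898780, minus strand) was at 62.9 and 67.1 CPM in R213G and 38.9 and 55.1 CPM in WT, with a log2 fold change of 0.47 ± 0.18 (unadjusted p = 0.0312, edgeR). Mcm3 (chromosome 1 from 20802968 to 20820312, minus strand) was at 126 and 113 CPM in R213G and 80.1 and 104 CPM in WT, with 0.37 ± 0.16 (unadjusted p = 0.0377, edgeR). In both genes the 2 genotypes did not overlap, and WT 2 lay nearer to the R213G libraries than to WT 1. Mcm6 was at 95.5 and 97.3 CPM in R213G and 60.1 and 93.8 CPM in WT and Mcm7 at 52.1 and 59.4 CPM in R213G and 36.6 and 48.7 CPM in WT, both without overlap. Mcm4 was at 74.02 and 81.6 CPM in R213G and 53.1 and 74.8 CPM in WT and Mcm5 at 62.4 and 76.2 CPM in R213G and 40.7 and 71.5 CPM in WT, with WT 2 above R213G 1 in both. Each of the 6 subunits was thus lowest in WT 1, and its own levels in the remaining libraries lay within 1.5-fold.

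Per kilobase of annotated exons, a scale on which different genes can be set beside each other, the 6 subunits were not equal. Mcm3 was highest at 21.3 to 33.6 CPM per kilobase over the libraries and Mcm2 lowest at 5.59 to 9.65 CPM per kilobase, with Mcm7 at 8.27 to 13.4 CPM per kilobase. Exons of all annotated transcripts were merged, so long minor transcripts lower these levels: the merged length was 6956 bases for Mcm2 and 3752 bases for Mcm3.

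The loaders of the ring were less alike than its subunits. Cdc6, the ATPase that brings the ring to the origin, was at 10.4 and 12.2 CPM in R213G and 5.69 and 7.90 CPM in WT, without overlap between genotypes (log2 fold change 0.73 ± 0.35, unadjusted p = 0.0637, edgeR). Cdt1, its partner, was at 36.9 and 45.8 CPM in R213G and 41.6 and 44.8 CPM in WT and varied little. Orc1, the large subunit of the origin complex, was the lowest member, at 0.879 and 2.96 CPM in R213G and 2.09 and 3.50 CPM in WT (30, 103, 69 and 120 counts), and Orc6, the small subunit, was at 16.7 and 11.8 CPM in R213G and 7.63 and 14.1 CPM in WT. R213G 1 was the lowest library for Orc1 and the highest for Orc6. Orc1 had the widest difference of all members between the R213G libraries, 1.69 on the log2 scale. Its log2 fold change between genotypes was -0.54 ± 0.70, and 0.08 without R213G 1.

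Of the genes that activate the helicase, Cdc45, Mcm10, Gins1 and Gins2 were ordered by replicate number, and Gins3 and Gins4 were not. Cdc45, the helicase cofactor, was at 11.1 and 24.3 CPM in R213G and 12.98 and 20.4 CPM in WT, with replicate 2 above replicate 1 in both genotypes. Mcm10, which helps the assembled helicase start to unwind, was at 16.4 and 26.9 CPM in R213G and 9.96 and 23.1 CPM in WT, in the same pattern. Gins1 was at 9.87 and 11.3 CPM in R213G and 9.29 and 12.6 CPM in WT and Gins2 at 17.3 and 20.4 CPM in R213G and 14.8 and 21.2 CPM in WT, both lowest in WT 1. Gins4 was at 18.5 and 27.9 CPM in R213G and 21.4 and 19.1 CPM in WT and Gins3 at 4.72 and 3.62 CPM in R213G and 6.20 and 6.53 CPM in WT. Gins3 had the most negative log2 fold change of the members (-0.61 ± 0.42, unadjusted p = 0.181, edgeR) and was the only one with both R213G libraries below both WT libraries. Of the exon bases of Gins2, 67.3% are shared with Gse1 on the opposite strand, so its counts are uncertain, as the strand setting of the counting is not given in the sources used here.

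In the sliding clamp and its loader, Pcna, Rfc1, Rfc2 and Rfc5 spread by less than 1.5-fold over the 4 libraries. Pcna, the ring that holds polymerases on DNA, was at 86.3 and 88.3 CPM in R213G and 62.4 and 80.1 CPM in WT, without overlap between genotypes (log2 fold change 0.29 ± 0.15). It was the highest member per kilobase of exons, at 26.0 to 36.8 CPM per kilobase. Its pseudogene Pcna-ps2 had 4 to 29 counts per library, against 2063 to 3074 for Pcna. Rfc1, the large subunit of the clamp loader, was at 59.5 and 61.96 CPM in R213G and 61.6 and 66.2 CPM in WT and Rfc2 at 61.04 and 60.04 CPM in R213G and 55.5 and 50.6 CPM in WT. Rfc3 was at 10.8 and 17.8 CPM in R213G and 12.3 and 13.96 CPM in WT, highest in R213G 2, and Rfc4 at 6.12 and 7.73 CPM in R213G and 4.27 and 9.44 CPM in WT, lowest in WT 1. Rfc5 was at 23.4 and 19.3 CPM in R213G and 19.8 and 17.7 CPM in WT. Rfc2 and Rfc5 were, with Gins4, the 3 members that were higher in WT 1 than in WT 2.

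Primase and the polymerases had 8 positive log2 fold changes of 9, none of which passed. Pola1, the catalytic subunit of the polymerase that starts each strand, was at 16.4 and 27.7 CPM in R213G and 17.3 and 24.4 CPM in WT, again high in replicate 2 of both genotypes, and its partner Pola2 was at 31.1 and 26.2 CPM in R213G and 23.2 and 27.7 CPM in WT. Prim1, the catalytic primase subunit, was at 12.8 and 15.7 CPM in R213G and 6.36 and 12.9 CPM in WT, with WT 1 at less than 1/1.5 of any other library. Prim2, the large primase subunit, was at 17.6 and 25.7 CPM in R213G and 16.7 and 18.3 CPM in WT, with R213G 2 above the rest. Pold1, the catalytic subunit of the lagging-strand polymerase, was at 45.3 and 46.2 CPM in R213G and 27.4 and 42.3 CPM in WT, without overlap between genotypes though WT 2 was close to both R213G libraries. Pold2 was at 25.2 and 19.8 CPM in R213G and 14.4 and 21.5 CPM in WT, and Pold3 at 37.6 and 43.7 CPM in R213G and 37.01 and 37.1 CPM in WT. Pold3 hardly differed between the WT libraries. Pole, the leading-strand polymerase, was at 24.05 and 31.2 CPM in R213G and 17.5 and 26.2 CPM in WT, and its subunit Pole2 at 8.58 and 7.79 CPM in R213G and 5.39 and 10.9 CPM in WT, lowest in WT 1 in both cases.

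Genes that protect single strands and finish the lagging strand all had positive log2 fold changes, from 0.18 to 0.50, none of which passed. Rpa1, the large subunit of the single-strand binding protein, was at 77.7 and 89.6 CPM in R213G and 64.6 and 83.5 CPM in WT. Rpa2 was at 14.1 and 17.6 CPM in R213G and 9.14 and 13.2 CPM in WT and Rpa3 at 6.65 and 5.92 CPM in R213G and 4.21 and 4.90 CPM in WT, both without overlap between genotypes. Fen1, the flap nuclease that trims Okazaki fragments, was at 55.4 and 50.3 CPM in R213G and 37.3 and 44.7 CPM in WT, also without overlap (log2 fold change 0.37 ± 0.17, unadjusted p = 0.056, edgeR). Of the Fen1 exon bases, 78.8% are shared with Gm10143 on the opposite strand, so its counts are uncertain. Lig1, the ligase that seals the fragments, was at 42.4 and 44.98 CPM in R213G and 27.6 and 47.5 CPM in WT, with WT 2 highest and WT 1 lowest.

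In nucleotide supply the WT libraries differed widely, while the median of the R213G libraries ran the other way. Rrm2, the S-phase subunit of ribonucleotide reductase, was at 68.01 and 82.6 CPM in R213G and 37.7 and 71.05 CPM in WT, and Rrm1, its large subunit, at 108 and 130.1 CPM in R213G and 83.95 and 130.0 CPM in WT. Tyms, which makes thymidylate, was at 25.2 and 16.7 CPM in R213G and 11.1 and 19.2 CPM in WT. Tk1, the thymidine kinase of S phase, was at 23.1 and 18.97 CPM in R213G and 12.2 and 25.6 CPM in WT. All 4 were lowest in WT 1, but Tyms and Tk1 were higher in R213G 1 than in R213G 2, whereas Rrm1 and Rrm2 were not. Dut, which removes dUTP, was at 18.3 and 14.2 CPM in R213G and 7.48 and 19.2 CPM in WT, the widest difference between the WT libraries among the members (1.35 on the log2 scale). Ung, which cuts uracil out of DNA, was at 11.7 and 9.63 CPM in R213G and 6.20 and 6.96 CPM in WT, without overlap between genotypes (log2 fold change 0.69 ± 0.34, unadjusted p = 0.0727, edgeR). Over the 6 genes the median difference was 0.85 between the WT libraries and -0.28 between the R213G libraries, with 6 and 2 genes higher in replicate 2.

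Of the 3 chromatin genes, Chaf1a and Chaf1b were ordered by replicate number and Uhrf1 was not. Chaf1a, the large subunit of the histone chaperone at the fork, was at 23.99 and 33.8 CPM in R213G and 26.8 and 38.7 CPM in WT, and Chaf1b, its partner, at 15.03 and 22.8 CPM in R213G and 15.1 and 25.3 CPM in WT. Replicate 2 was above replicate 1 in both genotypes for both genes, and both had negative log2 fold changes (-0.18 ± 0.25 and -0.10 ± 0.31). Of the exon bases of Chaf1a, 52.5% are shared with Ubxn6 on the opposite strand, so its counts are uncertain. Smaller overlaps with opposite-strand genes, of 10.7% to 17.4% of exon bases, apply to Ccne2, Rfc2, Rfc4, Orc1 and Rfc5. Members other than these, Chaf1a, Gins2 and Fen1 shared at most 8.50% of exon bases with any 1 gene. That value was for Pole2 with Gm49384, on the same strand. Uhrf1, which brings the maintenance methyltransferase to newly copied DNA, was at 40.8 and 40.01 CPM in R213G and 27.96 and 35.3 CPM in WT, without overlap between genotypes.

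Fork protection genes showed the widest gap between the WT libraries. Timeless, which links the helicase to the polymerases, was at 24.8 and 22.1 CPM in R213G and 9.11 and 17.8 CPM in WT, with a log2 fold change of 0.80 ± 0.31 (unadjusted p = 0.029, edgeR) and no overlap between genotypes. Wdhd1, which couples the helicase to the polymerase that starts each strand, was at 30.8 and 27.2 CPM in R213G and 11.95 and 29.3 CPM in WT, with only WT 1 apart. Clspn, the checkpoint mediator Claspin, was at 21.3 and 33.4 CPM in R213G and 18.1 and 30.98 CPM in WT, high in replicate 2 of both genotypes. For the 3 genes together the median difference was 0.96 between the WT libraries and -0.17 between the R213G libraries.

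Other genes of the pathway, read from lists of textbook members, were set beside the 51. Of 31 further replication factors in the table, 0 passed (edgeR), and 1 was at an unadjusted p under 0.05. In this list 23 log2 fold changes were positive and 8 negative, with a median of 0.095. Dscc1, part of an alternative clamp loader, was at 7.59 and 4.57 against 3.03 and 1.95 CPM (R213G against WT) and the chromatin remodeller Hells at 25.2 and 15.1 against 11.98 and 15.1 CPM. The maintenance methyltransferase Dnmt1 was at 187 and 234 against 174 and 223 CPM and the initiation factor Topbp1 at 79.03 and 107 against 80.1 and 102 CPM. Between the WT libraries 22 of the 31 were higher in WT 2, with a median difference of 0.36, beside 0.53 for the 51 members. For this list and those below, 2.22% of all tested genes met that p and 49.1% had a positive log2 fold change. Of all tested genes, 50.7% were higher in WT 2 and 52.2% in R213G 2 than in replicate 1.

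Genes that control the passage from G1 to S were less uniform. Of 29 such genes 0 passed and 0 were at an unadjusted p under 0.05, with 20 positive and 9 negative log2 fold changes and a median of 0.11. The cell cycle inhibitor Cdkn1a, known as p21, was at 238 and 200.2 against 232 and 216 CPM and Cdk4, the partner of D-type cyclins, at 135 and 133 against 121 and 117 CPM. The inhibitor Cdkn2b had few counts, 2 and 13 in the R213G libraries against 28 and 39 in the WT ones, and the cyclin Ccnd3 was at 123 and 90.6 against 85.3 and 88.5 CPM. Between the WT libraries the median difference of the list was 0.18, and 23 of 29 were higher in WT 2. Of 19 further nucleotide supply genes 0 passed and 0 were at an unadjusted p under 0.05, with 14 positive, 5 negative and a median of 0.20. Shmt1, which feeds one-carbon units to thymidylate synthesis, was at 12.1 and 13.1 against 4.36 and 9.65 CPM and Mthfd1, of the same pathway, at 50.9 and 51.4 against 35.2 and 47.1 CPM. Samhd1, which breaks down dNTPs, was at 444 and 432 against 423 and 482 CPM, and Atic, of purine synthesis, at 115 and 104 against 89.6 and 97.7 CPM.

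Mitosis genes, expressed mainly after S phase, set both replicate 1 libraries below both replicate 2 libraries. The 43 genes of a mitosis list took 0.203% (R213G 1), 0.276% (R213G 2), 0.152% (WT 1) and 0.270% (WT 2) of the counts. The R213G libraries were thus further apart in mitosis genes than in replication genes. Mki67, the usual marker of cycling cells, was at 243 and 411 against 227 and 393 CPM and Top2a, the topoisomerase that separates sister DNA, at 163 and 248 against 121 and 215 CPM. Cdk1, the mitotic kinase, was at 49.3 and 40.9 against 21.6 and 40.8 CPM and Ect2, which acts in cytokinesis, at 26.2 and 30.5 against 15.8 and 23.6 CPM. Of the 43 genes, 38 log2 fold changes were positive and 5 negative with a median of 0.18, and 0 passed or had an unadjusted p under 0.05. The median difference, replicate 2 minus replicate 1, was 0.40 in R213G (37 of 43 higher) and 0.86 in WT (43 of 43 higher), beside 0.14 and 0.53 for the 51 replication members. The share of counts in replication members divided by that in mitosis genes came to 0.895 (R213G 1), 0.689 (R213G 2), 0.838 (WT 1) and 0.672 (WT 2). Both replicate 1 libraries therefore lay above both replicate 2 libraries in this ratio, in either genotype, and the difference was not tested.

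**Figure D4:**
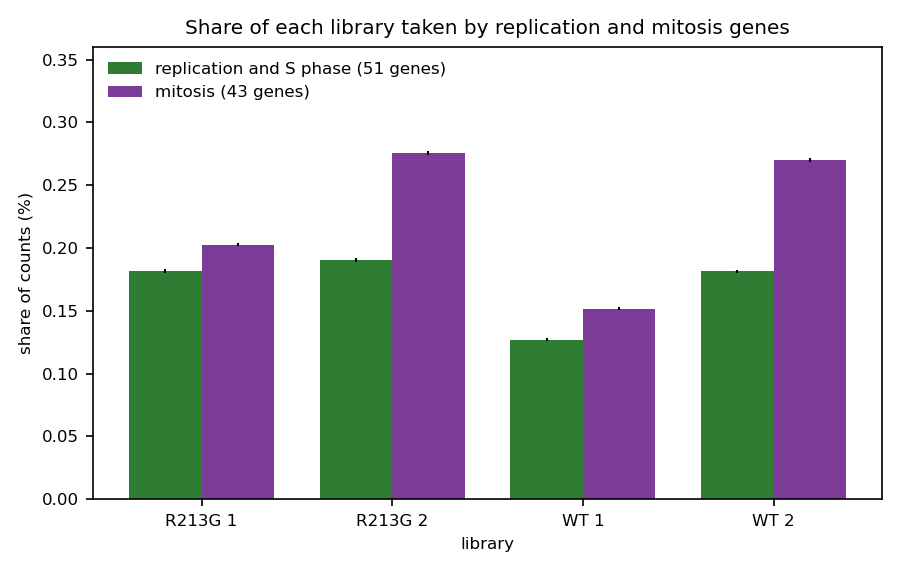
Share of all counts, in percent, taken by the 51 replication and S-phase members (green) and by the 43 mitosis genes (purple) in each library, with exact binomial 95% intervals for counting error. Replication members are lowest in WT 1 (0.127%) and near 0.18% to 0.19% elsewhere, while mitosis genes are lower in both replicate 1 libraries (0.203% and 0.152%) than in both replicate 2 libraries (0.276% and 0.270%).

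Markers of dendritic cells and of B cells also differed by replicate number. Of 12 dendritic cell markers 11 were in the table, and 9 of the 11 were lower in replicate 2 in each genotype. Their summed level was 329 and 125 CPM in R213G and 315 and 112 CPM in WT, with Xcr1 and Clec9a at 0 in R213G 1 and Xcr1 and Siglech at 0 in WT 1. Of 9 erythroid and mast cell markers 3 were in the table. Among them Kit was at 39.7 and 12.3 CPM in R213G and 34.95 and 12.4 CPM in WT. Hbb-bs and Klf1 were at 0 to 1.21 CPM. The 3 B and plasma cell markers in the table summed to 23.9 and 8.10 CPM in R213G and 18.5 and 6.59 CPM in WT. Their part in the replication values was not tested. Of T and NK cell markers, 10 of 13 were in the table, at 23.0 and 41.6 CPM in R213G and 30.5 and 28.2 CPM in WT, and Cd3d was at 0 in 3 of the 4 libraries. Resident alveolar macrophage markers summed to 1386 and 1362 CPM in R213G and 1271 and 1628 CPM in WT. Itgax was the largest part, at 834 and 912 CPM in R213G and 913 and 859 CPM in WT. Chil3 was at 198 and 177 CPM in R213G and 134 and 504 CPM in WT, highest in WT 2. Fabp1, Krt79 and Cidec of this list were at 0 to 1.63 CPM. The summed levels were 137 to 188 CPM for neutrophils and their precursors, 105 to 221 CPM for epithelium, 99.6 to 143 CPM for endothelium and 3.22 to 6.50 CPM for fibroblasts and mural cells. The neutrophil sum came from Mmp8, Csf3r and S100a8. The other genes of that list were at 0 to 1.06 CPM, or not in the table (Retnlg, Ly6g, Mpo, Elane and Camp). The endothelial sum was mostly Vwf, at 90.5 and 136 CPM in R213G and 129 and 110 CPM in WT. Pecam1, Cdh5 and Tie1 were at 0 to 3.06 CPM, and Emcn, Cldn5 and Ramp2 were not in the table. The epithelial sum was higher in replicate 1 of both genotypes (221 and 112 CPM in R213G, 169 and 105 CPM in WT) through Cdh1 and Epcam alone. The other 4 of the 6 tested epithelial markers, Sftpb, Ager, Krt19 and Scgb1a1, were higher in replicate 2 of both genotypes, at 0 to 6.12 CPM, and Krt8 was at 0 in 3 libraries.

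Exon length and GC content were weakly related to the differences between libraries. Across the 51 members Spearman's rho between exon length and the R213G difference was 0.15 (0.088 across 13259 tested genes with a length), and for the WT difference 0.043 (0.0032). For GC content rho was -0.24 in R213G (-0.055 across the same 13259 genes) and -0.12 in WT (-0.034). These are correlations across genes of the same library pair, given as descriptions.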

How the data were processed

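For the 4 libraries the authors deposited one table of raw counts by gene symbol. STAR 2.5.1b, Subread 1.4.4, featureCounts and build GRCm38 are named, per the submitters' processing notes. Annotation release, strand setting and treatment of shared reads: not given in the sources used here. The members and lists were chosen with earlier results of these data known. Every member was named, with its value in each library. For the other pathway lists, the genes named were the 2 of smallest unadjusted p and the 2 of highest mean CPM.

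R213G was tested against WT with the edgeR 4.0.16 quasi-likelihood test (R 4.3.3; newer form, robust estimation, TMM scaling, filterByExpr by group, 2 residual degrees of freedom) and Benjamini-Hochberg adjustment over 13575 genes, threshold 0.05. Procedures were tested on data simulated with a lower dispersion (spread between libraries) than the 0.14 of these data, so power in these data was not measured. The smallest two-sided p of an exact permutation test with 2 libraries per genotype is 0.333. The SE was the log2 fold change divided by the square root of F. Differences between libraries used log2 CPM with a prior count of 2. No 2 libraries agreed within sampling noise (chi-square per degree of freedom at least 17.5). Positions and exons came from GENCODE vM21 (GRCm38) and intervals from scipy 1.17.1. Alternatives were other scalings, filters, prior counts and tools (DESeq2 1.42.0, limma 3.58.1 voom), a replicate block, and leaving out each library.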

Additional observations from a re-analysis of the deposited data

How the results depend on the processing

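With 2 libraries per genotype, leaving out 1 leaves a lone library that is assumed to vary like the others. The number of genes called, 0 of 13575 (302 at an unadjusted p under 0.05), was 1 with DESeq2 and ranged from 0 to 2 when a library was left out (2 without R213G replicate 2). The number of members called was 0 under every alternative that kept all 4 libraries, with 4 to 6 members at an unadjusted p under 0.05. The 6 were seen with limma voom, beside 227 of 13575 tested genes, and with the replicate block, beside 298 of 13575. The members' median log2 fold change of 0.28 ranged from 0.045 (without WT replicate 1) to 0.58 (without WT replicate 2) over the left-out libraries. It was 0.28 to 0.30 under the other scalings, filters, tools and the block. The cause of these shifts was not tested. The count of members lowest in WT replicate 1, whose alternatives were chosen after seeing the data, was 39 under each scaling.

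The replicate numbers of the titles are not said to mark a shared mouse or day. The deviations of same-numbered libraries correlated at 0.0926 over all tested genes and 0.0786 over the members. With the number as a replicate block, 0 genes were called and the members' median was 0.30 with 44 positive. At an unadjusted p under 0.05 were 6 of the 51 members, beside 298 of 13575 tested genes.

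The log2 fold change of Pole2, -0.003 over all libraries, was 0.00153 with a mean of at least 5 CPM, 0.00486 with DESeq2, 0.0815 with limma voom, 0.0045 with the edgeR legacy form and 0.0201 with the replicate block. Leaving out 1 library turned the sign of these members, whose lowest and highest values are given: Ccne2 (-0.32 to 0.93), Cdc45 (-0.59 to 0.54), Cdt1 (-0.23 to 0.084), Chaf1a (-0.45 to 0.11), Chaf1b (-0.43 to 0.33), Clspn (-0.21 to 0.60), Dut (-0.24 to 1.12), E2f1 (-0.0083 to 0.34), Gins1 (-0.25 to 0.19), Gins2 (-0.17 to 0.35), Gins4 (-0.13 to 0.46), Lig1 (-0.12 to 0.66), Mcm10 (-0.089 to 1.12), Mcm5 (-0.044 to 0.77), Orc1 (-1.67 to 0.079), Pola1 (-0.35 to 0.41), Pole2 (-0.42 to 0.60), Rfc3 (-0.28 to 0.44), Rfc4 (-0.45 to 0.70), Rrm1 (-0.13 to 0.50), Tk1 (-0.29 to 0.78) and Wdhd1 (-0.019 to 1.28). The members with the smallest unadjusted p, Ccne1, Timeless, Mcm2 and Mcm3, had both R213G libraries above both WT libraries. Leaving out 1 library therefore could not turn their sign, which was positive under every alternative run.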

Other observations

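Of the 29 other G1-S control genes, 17 were higher in replicate 2 in R213G and 23 in WT. The genes named here were chosen from them after their values were seen. Ccnd2, a D-type cyclin, was at 76.01 and 33.02 CPM in R213G and 72.5 and 24.2 CPM in WT, and the growth regulator Myc at 71.1 and 31.2 CPM in R213G and 48.5 and 34.3 CPM in WT, both higher in replicate 1 of each genotype. Ccnd1, another D-type cyclin, was at 113 and 74.5 CPM in R213G and 90.6 and 62.6 CPM in WT, in the same order. Cdkn2c, an inhibitor of the kinases that D-type cyclins bind, was at 25.2 and 46.7 CPM in R213G and 21.7 and 44.8 CPM in WT, and the repressor E2f7 at 9.02 and 16.04 CPM in R213G and 4.84 and 14.9 CPM in WT, both higher in replicate 2 of each genotype. None passed between genotypes (edgeR), and the differences between replicate numbers were not tested.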
